A study of Homo sapiens with 24 samples.

Results

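The genes described here are 59 genes of the actin cytoskeleton that were grouped because they build or control actin filaments and include known targets of the muscle microRNAs miR-1 and miR-133a. They were picked by symbol, and their symbols were mapped from the Ensembl identifiers of the count tables, which hold 29794 genes. All 59 were found. The filter on low counts, which looks at all libraries of a batch, was passed by 56 of them in batch 1 and 57 in batch 2. The others were CNN1 (batch 1 only, 3 to 11 counts per library), MYL9 and TAGLN3 (at most 1 count in any library).

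Actin monomers add to the growing end of a filament with the help of profilins, are held in reserve by thymosins, twinfilins and cyclase-associated proteins, and leave the old end through cofilins and gelsolin. Filaments branch through the Arp2/3 complex, are capped, are coated by tropomyosins, calponins and transgelins, are crosslinked by filamins, alpha-actinins and fascin, and are pulled by nonmuscle myosin II. miR-1 and miR-133a are made in skeletal and heart muscle, where they are transcribed together. A miRNA pairs with its targets mainly through bases 2 to 8 at its 5′ end, the seed, and most effective sites lie in the 3′ untranslated region (3′UTR) of the mRNA, where pairing lowers translation and speeds decay of the mRNA.

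The cells were Flp-In T-REx 293, a HEK293 line derived from human embryonic kidney. Each group carried a lentiviral vector in which a synthetic miRNA hairpin sat in the intron of a doxycycline-inducible GFP cassette, and the empty vector controls carried the cassette without a hairpin. All groups, controls included, were selected in geneticin at 1 mg/mL for 6 days and were induced with doxycycline at 1 µg/mL for 7 days, so the GFP cassette and both drugs were common to every library. Strand-specific libraries were made from polyadenylated RNA, 1000 ng of total RNA each. Batch 1 held empty vector, miR-1 and miR-122 (a liver miRNA) with 2 separately transduced cultures each, and batch 2 held its own empty vector with 3 cultures, miR-133a and miR-155 with 3 each, and miR-302a, miR-372 and the related miR-373 with 3 each. The controls for a miRNA were always the empty vector libraries labelled with its batch. The level of each mature miRNA was not measured by these counts, and as they are counts of standing RNA, slower synthesis and faster decay, or fewer cells with a transcript and less RNA per cell, cannot be told apart.

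Libraries held 20153452 to 21595191 counts in batch 1 and 13047400 to 35040778 in batch 2, and the 59 genes took 1.32 to 1.38% and 1.22 to 1.59% of them. Replicate 2 of miR-155, miR-302a and miR-372 stood apart from the other libraries of their groups. The chi-square per degree of freedom over genes was 15.2 to 33.6 for the 6 pairs that included one of them, against 2.38 to 12.6 for the other 12 replicate pairs of batch 2 and 1.79 to 4.14 in batch 1. Counts of members called in batch 2 are given with and without them. The shares of all genes called without them are not given, so the counts without them are no result about the members. Genes that mark HEK293 cells were present in all libraries, with VIM at 908 to 1310 CPM (counts scaled to a library total of 1e+06, after TMM scaling), KRT8 at 176 to 297 and PAX2 at 5.28 to 13.8. The 10 skeletal and heart muscle markers together reached 6.32 to 10.3 CPM, mostly from MYH3, and MYF5 was at 0 in every library. The 3 smooth muscle markers together were at 56.2 to 73.4 CPM, mostly SMTN, and MYH11 was at most 0.491.

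The miRNAs are shown first because their seeds set which 3′UTRs can pair with them. Their mature sequences, as given by RefSeq, are printed 5′ to 3′ with the seed in capitals.

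hsa-miR-1-3p: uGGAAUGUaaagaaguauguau

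hsa-miR-133a-3p: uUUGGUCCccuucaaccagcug

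hsa-miR-122-5p: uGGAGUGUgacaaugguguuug

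hsa-miR-155-5p: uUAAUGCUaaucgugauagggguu

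hsa-miR-302a-3p: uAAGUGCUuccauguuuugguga

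hsa-miR-372-3p: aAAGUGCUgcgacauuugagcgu

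hsa-miR-373-3p: gAAGUGCUucgauuuuggggugu

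miR-302a, miR-372 and miR-373 share the seed AAGUGCU and are 1 seed family. Sites were searched on the transcript strand of the longest annotated 3′UTR of each gene (GRCh37, the basis of hg19). An 8mer is a match to bases 2 to 8 followed by A, which is ACATTCCA for miR-1, GGACCAAA for miR-133a, AGCATTAA for miR-155 and AGCACTTA for the miR-302a family. A 7mer lacks either the final A or the match to base 8, and a place was counted once, under its longest match. The next sequences are a selection of sites in the 3′UTRs of members, most for miR-1 or miR-133a, and not all sites of these genes or of the list. Among them are sites of 2 genes that were not lower, CAP2 and PFN2. Each site is in capitals, on the strand of the transcript, and coordinates are those of the capitals in GRCh37.

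TWF1, miR-1 8mer at chr12:44187768-44187775, minus strand, exon 10 of 10: ctacattaaagtaaatggACATTCCAgaat

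LASP1, miR-1 8mer at chr17:37075060-37075067, plus strand: cccccatctgtcttcagcACATTCCAcggc

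TMSB4X, miR-1 8mer at chrX:12994959-12994966, plus strand: gccgccaatatgcactgtACATTCCAcaag

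CORO1C, miR-1 8mer at chr12:109041061-109041068, minus strand: aggcactgccatttggagACATTCCAtttc

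PFN2, miR-1 8mer at chr3:149683228-149683235, minus strand: ctgattgaatccccagggACATTCCAtcat

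TAGLN2, miR-133a 8mer at chr1:159888340-159888347, minus strand: gcctcttcctttcccctgGGACCAAAattt

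CNN2, miR-133a 8mer at chr19:1039029-1039036, plus strand: aatgtgaaatacgactgtGGACCAAAcgca

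MYH9, miR-133a 8mer at chr22:36677919-36677926, minus strand: ttctcccaacactcttggGGACCAAAtata

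LASP1, miR-133a 8mer at chr17:37077130-37077137, plus strand: agcacaatgtggatttggGGACCAAAggtc

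CAP1, miR-133a 8mer at chr1:40537694-40537701, plus strand: cgaggcaagggttgcactGGACCAAAggct

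MSN, miR-133a 8mer at chrX:64959896-64959903, plus strand: gcatttaatgtagccatgGGACCAAAccta

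CAP2, miR-133a 8mer at chr6:17557230-17557237, plus strand: gacataagagtttataaaGGACCAAAttca

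TWF1, miR-155 8mer at chr12:44188819-44188826, minus strand: atttgacttttttttaatAGCATTAAaatt

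TWF1, miR-302a family 7mer at chr12:44189262-44189268, minus strand: tgtactttttggaaaatAGCACTTttca

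Without an added miRNA, the members ran from the most abundant mRNAs of the cell to genes at or near 0. In the batch 2 empty vector libraries, levels per transcript length (RPKM, CPM divided by the length of the gene model in kilobases, mean ± SD, n = 3) were headed by cytoplasmic gamma-actin ACTG1 at 994 ± 67.6 and beta-actin ACTB at 393 ± 13.6. The thymosin TMSB10 was at 380 ± 28.6 and the profilin PFN1 at 317 ± 11.1, and of these ACTB and TMSB10 did not differ beyond their spread. The myosin light chain MYL6 (135 ± 8.71), cofilin CFL1 (132.8 ± 4.70) and transgelin TAGLN2 (129 ± 8.41) followed and did not differ beyond their spread. Paralogs were far apart in some families, with TAGLN2 at 129 and the smooth muscle gene TAGLN at 0.654 RPKM, TMSB10 at 380 and TMSB4X at 5.59 ± 0.735, and CNN3 at 80.4 ± 3.20, CNN2 at 20.2 ± 0.976 and CNN1 at 0.128. In others they were close, with MYH9 (76.0 ± 10.9) not differing from MYH10 (71.2 ± 6.66) beyond their spread. TWF2 at 31.3 ± 4.27 was above TWF1, but its gene model has 592 bases against 3352 for TWF1. In counts the order was reversed, with at most 715 in any library for TWF2 and at most 1489 for TWF1. TWF1 (18.7 ± 1.94), LASP1 (17.98 ± 1.91) and TPM1 (15.1 ± 0.818) were among the middle members. Reads with several places were left out of the counts. ACTG1 has 21 named pseudogenes, ACTB 12, PFN1 11 and TMSB4X 6, so their levels could be understated.

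**Figure D1:**
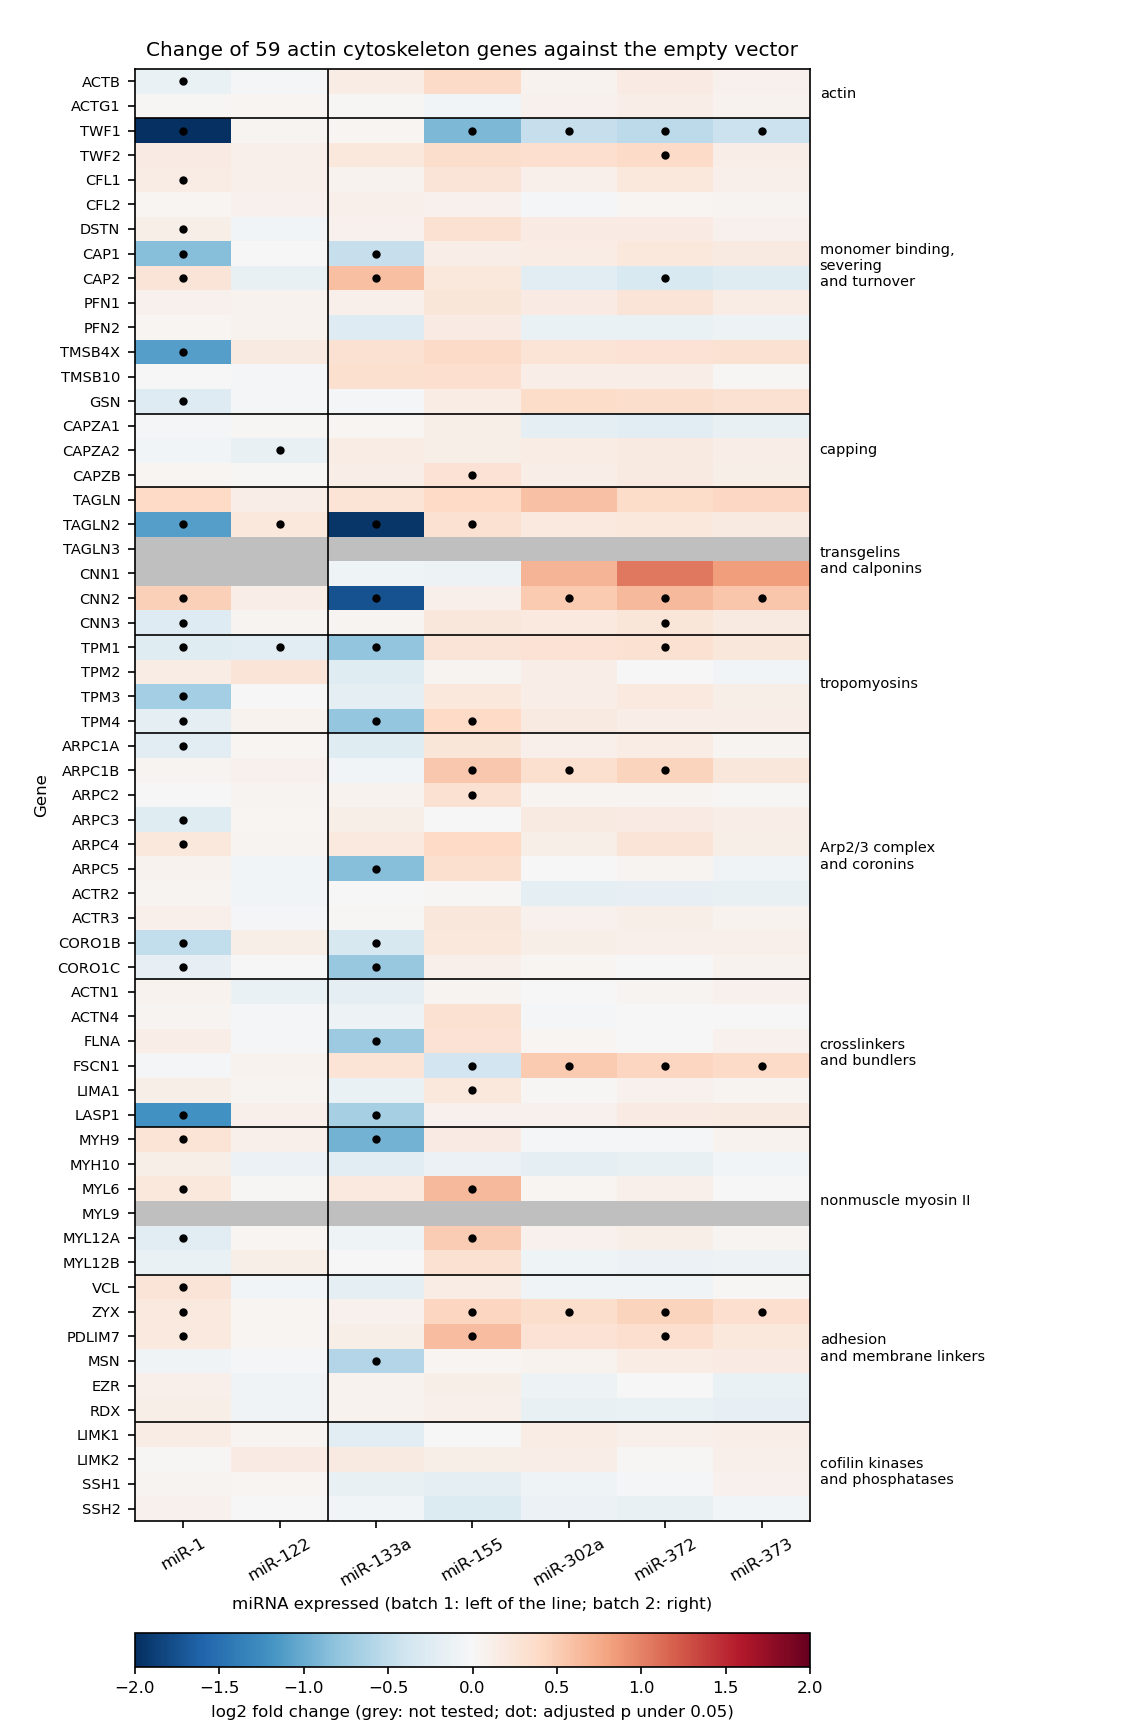
Heat map of the log2 fold change of each member (rows, grouped by role) with each of the 7 miRNAs (columns) against the empty vector of the same batch, with a dot for a called change and grey for members that were not tested. The columns of miR-1 and miR-133a hold the strongest decreases, down to -1.99 for TWF1 and -1.95 for TAGLN2.

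miR-1 lowered a set of genes led by TWF1, LASP1, TAGLN2, TMSB4X and CAP1 by 1.81- to 3.98-fold, and it raised others by smaller amounts. Of the 56 members tested, 16 were lower and 10 higher at an adjusted p under 0.05, when 24.5% of all 14348 genes tested in batch 1 were called (13.7% lower and 10.8% higher). The median log2 change of the members was 0.05. The lower members were spread over roles: 4 of 12 in monomer binding and turnover, 3 of 4 tropomyosins, 4 of 10 in the Arp2/3 complex and coronins, and 2 of 4 transgelins and calponins. None of the 6 linkers to adhesions and membrane was called lower, and 3 of them were higher.

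TWF1, twinfilin 1 (ENSG00000151239.9, chr12:44187526-44200131), binds actin monomers and caps filament ends. It was at 57.4 and 58.4 CPM in the empty vector libraries, 13.9 and 15.2 with miR-1 and 56.1 and 64.5 with miR-122. The miR-1 libraries lay far below both other groups, which overlapped. The log2 fold change was -1.99 ± 0.0771 (SE, adjusted p = 4.62e-13), the largest decrease among the members, whereas its paralog TWF2 had 0.17 (adjusted p = 0.129). The TWF1 8mer lies at position 1613 of a 3′UTR of 1862 bases, and the transcript with the longest coding sequence ends before it.

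CAP1, the cyclase-associated protein that recharges actin monomers with nucleotide, was at 208 and 211 CPM in control cells and at 118 and 113 with miR-1, a log2 change of -0.86 ± 0.043 (adjusted p = 1.95e-11). Its muscle-enriched paralog CAP2 moved the other way, from 41.6 and 39.0 to 48.6 and 47.7 CPM, 0.26 ± 0.058 (adjusted p = 0.00309). In both genes the groups were separate. TMSB4X, a thymosin that sequesters actin monomers, had few counts, at 7.83 and 9.73 CPM in the controls and 3.92 and 4.29 with miR-1 (-1.10 ± 0.156, adjusted p = 4.11e-05). The abundant thymosin TMSB10 did not pass the test (0.00, adjusted p = 0.963). GSN, gelsolin, which severs filaments, went from 19.7 in both control libraries to 16.5 in both miR-1 libraries (-0.26 ± 0.08, adjusted p = 0.0248), a call that was lost under 5 alternatives. The severing proteins CFL1 (0.14, adjusted p = 0.0203) and DSTN (0.12, adjusted p = 0.0465) were higher by small amounts.

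LASP1, an adaptor with a LIM and an SH3 domain that joins actin to adhesions (ENSG00000002834.13, chr17:37026112-37078023), has 2 miR-1 8mers in its 3′UTR. It fell from 107 and 109 CPM to 48.1 and 45.1 (-1.21 ± 0.0499, adjusted p = 8.06e-13) and was at 115 and 116 with miR-122. It was the only member among the 6 crosslinkers and bundlers called with miR-1 in either direction. TAGLN2, a transgelin that gels filaments and is found outside muscle, went from 281 and 301 CPM to 139 and 132 (-1.11 ± 0.0451, adjusted p = 8.06e-13), and was 0.21 higher with miR-122 (adjusted p = 0.00374). Of the calponins, which bind filaments and damp myosin, CNN3 was lower (181 and 192 against 155.4 and 158 CPM, -0.25, adjusted p = 0.00024) and CNN2 higher (47.5 and 48.4 against 67.7 and 65.6 CPM, 0.48 ± 0.0519, adjusted p = 1.71e-06).

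Tropomyosins wrap the filament and set which proteins may bind it. TPM3 was at 258 and 260 CPM in control cells and at 158 and 166 with miR-1 (-0.68 ± 0.0417, adjusted p = 4.31e-10). TPM1 went from 74.9 and 77.2 to 65.5 and 62.7 CPM (-0.25, adjusted p = 0.00125) and TPM4 from 254 and 259 to 228 and 222 CPM (-0.19, adjusted p = 0.00204). The call of TPM4 was lost under 1 alternative. TPM1 was also lower with miR-122, at 66.0 and 65.7 CPM (-0.21, adjusted p = 0.0138), a call lost under 3 alternatives. TPM2 was not called. Of the branching machinery, the coronins, which recycle Arp2/3 branches, were both lower: CORO1B from 42.9 and 42.7 to 29.4 and 31.6 CPM (-0.49 ± 0.0633, adjusted p = 1.38e-05) and CORO1C from 274 and 275 to 245 and 247 CPM (-0.16, adjusted p = 0.00549). The call of CORO1C was lost under 2 alternatives. CORO1B overlaps PTPRCAP on the same strand, so its counts could be split between them. Within the Arp2/3 complex itself, ARPC3 (-0.25, adjusted p = 0.000821) and ARPC1A (-0.23, adjusted p = 0.00047) were lower and ARPC4 was higher (0.22, adjusted p = 0.00997).

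The genes that rose with miR-1 were led, after CNN2, by the heavy chain of nonmuscle myosin MYH9, the adhesion protein vinculin and CAP2. MYH9 was at 593 and 543 CPM in control cells and 683 and 688 with miR-1 (0.27 ± 0.0419, adjusted p = 0.000102). VCL, vinculin, went from 294 and 275 to 330.3 and 348 CPM (0.25, adjusted p = 0.000231), and the other 2 linkers that rose were PDLIM7 (0.20, adjusted p = 0.0199) and ZYX (0.19, adjusted p = 0.0144). Of the myosin light chains, MYL6 was higher (0.21, adjusted p = 0.000844) and MYL12A lower (-0.21, adjusted p = 0.0104). ACTB was called lower with miR-1 (877 and 951 against 865 and 798 CPM, -0.14, adjusted p = 0.0341), a call lost under 5 alternatives, while ACTG1 had 0.02 and was not called. Against miR-122, the other miRNA of batch 1, 14 members were lower and 17 higher with miR-1, when 31.2% of all genes were called. Without miR-1 replicate 1 this count of 31 was 20, and the counts against the empty vector ran from 18 to 27 when 1 library was left out. Summed marker levels moved with miR-1 too: HEK293 markers were at 1689 to 1717 CPM against 1509 to 1523 in the controls, fibroblast markers at 21.3 to 21.6 against 18.2 to 18.5 and muscle markers at 6.32 to 6.35 against 7.06 to 7.37. Their part in the results was not tested.

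**Figure D2:**
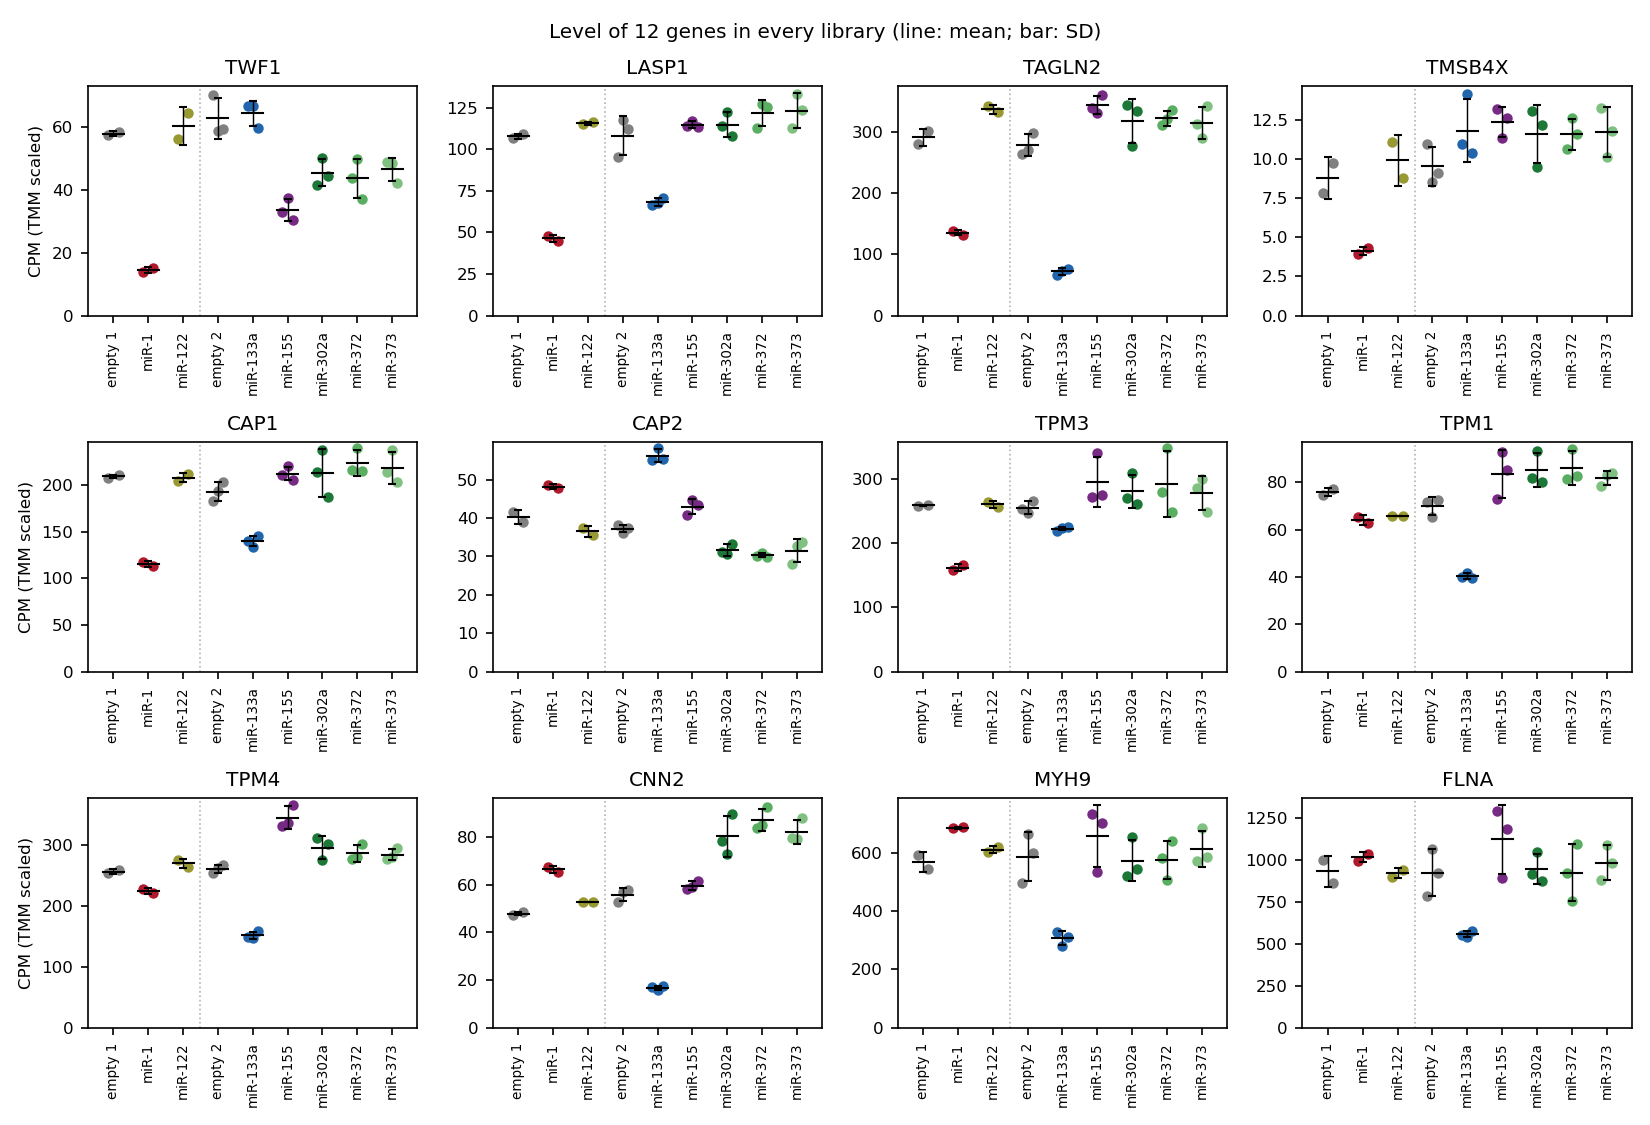
CPM of 12 members in each of the 24 libraries, by group, with a line at each group mean and a bar of 1 SD. TWF1 lies between 13.9 and 15.2 with miR-1 and above 30 elsewhere, and TAGLN2 lies between 66.7 and 76.7 with miR-133a and above 130 elsewhere.

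miR-133a gave fewer calls but nearly all in 1 direction: 12 of the 57 members tested were lower and only CAP2 was higher. Across all 14054 genes tested in batch 2, 5.34% were called, 3.97% lower and 1.37% higher, and the median of the members was -0.02. TAGLN2 and CNN2 fell by more than 3-fold, followed by MYH9, ARPC5, TPM1, TPM4, CORO1C and FLNA, then LASP1, MSN, CAP1 and CORO1B. By role these were 2 of 5 transgelins and calponins, 2 of 4 tropomyosins, 3 of 10 in the Arp2/3 complex and coronins, 2 of 6 crosslinkers and bundlers, and 1 each of monomer binding, nonmuscle myosin II and membrane linkers. The count was 12 or 13 whichever library was left out and 17 without the 3 libraries that stood apart. Of the calls added there, TMSB10 (0.32, adjusted p = 0.0111) and FSCN1 (0.28, adjusted p = 0.0116) were higher. PFN2 (-0.25, adjusted p = 0.00518) and ARPC1A (-0.24, adjusted p = 0.00871) were lower. Fibroblast markers summed to 10.3 to 13.02 CPM with miR-133a against 15.7 to 18.1 in the controls, and muscle markers to 8.82 to 10.3 against 6.85 to 8.03, and their part in the results was not tested.

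TAGLN2 (ENSG00000158710.10, chr1:159887897-159895297) was at 265, 271 and 299 CPM in the empty vector libraries of batch 2 and at 66.7, 73.0 and 76.7 with miR-133a. The change of -1.95 ± 0.092 (adjusted p = 1.39e-10) left the miR-133a libraries below all 21 others. CNN2, calponin 2 (ENSG00000064666.10, chr19:1026585-1039067), went from 52.9, 56.9 and 58.0 to 16.9, 15.7 and 17.6 CPM, -1.74 ± 0.0895 (adjusted p = 2.12e-10). Its groups did not overlap either. CNN2 has 12 named pseudogenes, so its level, though less its difference between libraries, is uncertain. Of their relatives, CNN3, TAGLN and CNN1 were not called.

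MYH9, the heavy chain of nonmuscle myosin IIA, the motor that contracts the filament network, was at 497, 663 and 600 CPM in control cells and 328, 280 and 310 with miR-133a (-0.94 ± 0.131, adjusted p = 0.000125). FLNA, filamin A, which crosslinks filaments into nets, went from 783, 1063 and 921 to 554, 540 and 577 CPM (-0.73 ± 0.143, adjusted p = 0.00387). The control libraries of both genes were spread widely, with replicate 1 lowest, but no miR-133a library reached them. The paralog MYH10 and both alpha-actinins were not called. LASP1 fell from 95.3, 117 and 112 to 66.5, 67.4 and 70.8 CPM (-0.67 ± 0.085, adjusted p = 4.48e-05), and MSN, moesin, which ties filaments to the plasma membrane, from 129, 145 and 144 to 88.3, 90.7 and 98.8 (-0.59 ± 0.072, adjusted p = 2.79e-05). Ezrin and radixin, the relatives of moesin, were not called.

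ARPC5, a subunit of the Arp2/3 complex, was at 173, 164 and 166 CPM in control cells and 89.5, 98.7 and 90.1 with miR-133a (-0.85 ± 0.11, adjusted p = 4.95e-05). It was the 1 subunit called out of the 8 of the complex on the list. Without the 3 libraries that stood apart ARPC1A was called lower too (-0.24, adjusted p = 0.00871). CORO1C fell from 276, 288 and 287 to 170, 161 and 173 CPM (-0.76 ± 0.0663, adjusted p = 4.39e-07) and CORO1B from 41.6, 46.3 and 41.5 to 32.3, 35.3 and 36.0 CPM (-0.32, adjusted p = 0.0203, lost under 4 alternatives). The 2 tropomyosins that fell were TPM1, from 71.6, 65.6 and 72.6 to 40.0, 41.9 and 39.7 CPM (-0.79 ± 0.0919, adjusted p = 1.52e-05), and TPM4, from 254, 262 and 267 to 149, 148 and 159 CPM (-0.78 ± 0.0699, adjusted p = 5.61e-07). In each of these 5 genes the groups were separate. TPM3, the tropomyosin that moved most with miR-1, had -0.20 here and was not called.

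CAP1 and CAP2 again moved apart. CAP1 was at 183, 194 and 203 CPM in control cells and 141, 134 and 145 with miR-133a (-0.47 ± 0.0857, adjusted p = 0.00226). CAP2 was at 38.2, 36.2 and 37.3 against 55.1, 58.3 and 55.4 CPM (0.60 ± 0.0766, adjusted p = 4.73e-05), although its 3′UTR holds a miR-133a 8mer like that of CAP1. The miR-133a libraries of CAP2 were above all other libraries of the series. Against the mean of the other 4 miRNAs of batch 2, which differ from miR-133a in seed but share the vector, 22 members were lower and 2 higher with miR-133a, when 17.8% of all genes were called (8.99% lower and 8.79% higher). Without the 3 libraries that stood apart these were 26 and 6. TWF1 was 1 of the 2 that were higher (0.62 ± 0.0843, adjusted p = 3.21e-05), and its miR-133a libraries (66.5, 66.8 and 59.7 CPM) overlapped the empty vector libraries (70.2, 58.7 and 59.2 CPM). The other 4 miRNAs were not neutral for the members, whose medians against the empty vector were 0.21 (miR-155), 0.10 (miR-302a) and 0.13 (miR-372). Against the empty vector itself, 12 members were lower with miR-133a.

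The muscle miRNAs, which are made together in muscle, met on part of the list. Lower with both were CAP1, CORO1B, CORO1C, LASP1, TAGLN2, TPM1 and TPM4, which are 7 genes or 43.8% of the 16 lower with miR-1 and 58.3% of the 12 lower with miR-133a. Of the 7, CORO1C lost its miR-1 call under 2 alternatives (log2 changes -0.15 and -0.16) and TPM4 under 1 (-0.16). CORO1B lost its miR-133a call under 4. Of all genes tested in both batches, 176 were lower with both, which are 8.98% of the 1959 lower with miR-1 and 31.5% of the 558 lower with miR-133a. CNN2 and MYH9 were higher with miR-1 and lower with miR-133a. In a fit of both batches, in which each miRNA change was taken against its own empty vector, the change with miR-1 was lower than that with miR-133a for 3 members and higher for 9, when 3.24% of 14383 genes differed (1.59% lower and 1.65% higher). The 3 were TWF1 (difference of log2 changes -2.02 ± 0.174, adjusted p = 1.19e-07), TMSB4X (-1.40 ± 0.25, adjusted p = 0.0013) and LASP1 (-0.54 ± 0.122, adjusted p = 0.0132). The 9 were led by CNN2 (2.23 ± 0.12, adjusted p = 6e-11), MYH9 (1.22 ± 0.185, adjusted p = 0.000262), ARPC5 (0.93 ± 0.163, adjusted p = 0.00109), FLNA (0.86 ± 0.206, adjusted p = 0.0191) and TAGLN2 (0.85 ± 0.128, adjusted p = 0.000225), and held also CORO1C, TPM4, TPM1 and MSN. The differences for FLNA and TPM1 were each lost under 4 alternatives and that for LASP1 under 3. For CAP1 the difference was -0.39 ± 0.124 (adjusted p = 0.0949), and for TPM3 it was -0.47 ± 0.167 (adjusted p = 0.141), and neither passed the test. With only the groups compared both did (CAP1 adjusted p = 0.00613, TPM3 adjusted p = 0.000724), and TPM3 did with no filter (adjusted p = 0.0278). The 2 miRNAs were measured in separate batches, so a difference between them and one between the cultures of the batches cannot be told apart beyond what the 2 empty vector groups remove.

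**Figure D3:**
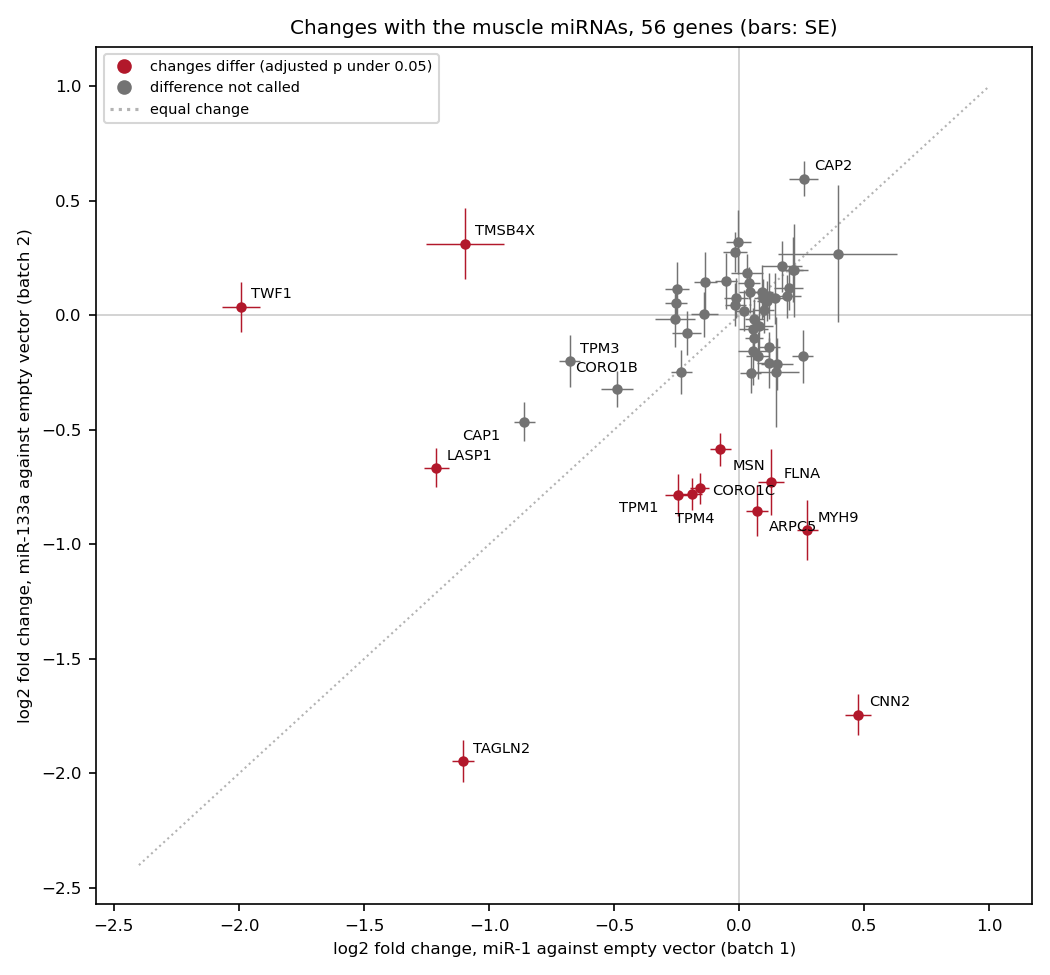
Log2 fold change with miR-1 (horizontal axis) and with miR-133a (vertical axis) of the 56 members tested in both batches, each against its own empty vector, with bars of 1 SE and the members whose changes differed in red. TWF1 lies at -1.99 on the miR-1 axis and near 0 on the other, CNN2 and MYH9 lie to the lower right, and LASP1, TAGLN2 and CAP1 lie at the lower left.

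Most members that were lower with a muscle miRNA had a seed match for it. With miR-1, 22 of 56 members (39.3%) had at least 1 match in the 3′UTR, and 14 of them (63.6%) were lower, against 2 of 34 members (5.88%) without a match. When only 8mers and 7mers that reach base 8 were counted, these were 9 of 15 (60.0%) and 7 of 41 (17.1%). Among all genes tested that have an annotated 3′UTR, 24.1% had a match, of which 26.4% were lower, and 10.6% of genes without a match were lower. With miR-133a, 18 of 57 members had a match and 11 of these (61.1%) were lower, against 2.56% of members without. Over all genes 17.2% had a match, and 14.2% of those with and 2.05% of those without were lower. The lengths of the 3′UTRs were not matched in these shares: their median was 1277 bases in the members and 1534 in all genes tested in batch 1. The members include known targets of both miRNAs and were chosen with earlier results of these data known. Their shares therefore describe the list and are no test against all genes.

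Among the classes of match, the changes were lowest with 8mers. The 7 members with a miR-1 8mer had a median log2 change of -0.25 with 6 lower, the 15 with 7mers only a median of -0.14 with 8 lower, and the 34 without a match a median of 0.09. For miR-133a the medians were -0.63 in 8 members with an 8mer (6 lower, and CAP2 higher), -0.29 in 10 with 7mers only (5 lower) and 0.05 in 39 without. There were exceptions. PFN2, a profilin, has a miR-1 8mer and was at 0.05 with miR-1 (adjusted p = 0.47), and SSH2, a phosphatase of cofilin, has a miR-133a 8mer and was at -0.05 (adjusted p = 0.865). GSN and MYL12A were lower with miR-1, and FLNA with miR-133a, without any match in the 3′UTR, and in FLNA the coding sequence had no match of 7 or 8 bases that reaches base 8 either. TPM1 has its matches only in the 3′UTR of a transcript of 2 exons and none in that of the transcript with the longest coding sequence. A match is a description of letters, and which isoforms these cells express was not measured here.

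The 7 genes that were lower with both miRNAs each had a match for both. The starts of the miR-1 and miR-133a sites were 29 bases apart in CAP1 and in TAGLN2, 125 in TPM4, 224 in CORO1C, 346 in TPM1, 453 in CORO1B and 1691 in LASP1, measured between the nearest pair. The annotated 3′UTR of CORO1B has 2866 bases, more than the 2135 bases of the whole gene model over which its reads were counted. Part of that 3′UTR thus lies outside the counted model, and whether these cells express it was not measured. TAGLN2 has 3 miR-1 7mers and 2 miR-133a matches in a 3′UTR of 693 bases. Its nearest pair is a miR-1 7mer at chr1:159888398-159888404, position 186, and a miR-133a 7mer at chr1:159888369-159888375, position 215, which is not the 8mer printed above.

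**Figure D4:**
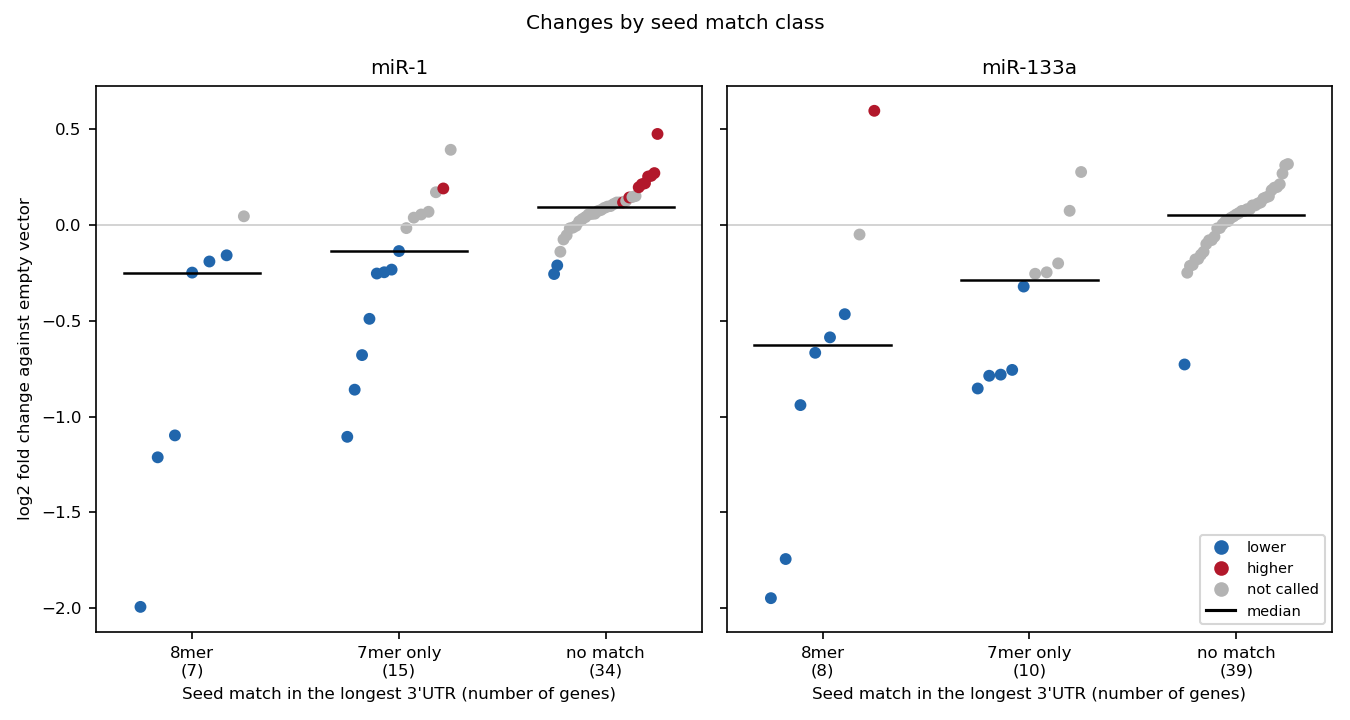
Log2 fold change of each member by class of 3′UTR seed match (8mer, 7mer only, none) for miR-1 and miR-133a, 1 point per gene, with a line at the median of each class. The medians rise from -0.25 over -0.14 to 0.09 for miR-1 and from -0.63 over -0.29 to 0.05 for miR-133a.

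With miR-155, a miRNA of immune cells, more members rose than fell: 2 were lower and 10 higher out of 57, with 7.63% of all genes called (4.81% lower and 2.82% higher) and a member median of 0.21. TWF1 was the member that fell most, from 70.2, 58.7 and 59.2 CPM to 32.9, 37.2 and 30.5 (-0.90 ± 0.113, adjusted p = 3.35e-05), and it carries the miR-155 8mer printed above. FSCN1, fascin, which bundles filaments in protrusions, fell from 104, 132.9 and 126 to 93.9, 85.2 and 98.4 CPM (-0.38 ± 0.0882, adjusted p = 0.0105). Both groups were separate in these 2 genes. In TWF1, the 3′UTR of the transcript with the longest coding sequence has no miR-155 match. The other 4 members with a miR-155 8mer (ACTR2, ARPC3, CAPZA2 and TAGLN) were not called.

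The 10 that rose with miR-155 came from several roles and none of them had a miR-155 match in its 3′UTR. MYL6, the essential light chain of myosin, was at 339, 299 and 315 CPM in control cells and 459, 611 and 417 with miR-155 (0.64 ± 0.141, adjusted p = 0.00762), where the highest value was that of replicate 2, which stood apart. Without that library the change was 0.46 and its adjusted p was 0.0614, and with all 3 libraries that stood apart left out it was 0.46 with an adjusted p of 0.00229. PDLIM7, a scaffold at stress fibres, went from 31.6, 38.6 and 34.1 to 54.2, 51.1 and 54.9 CPM (0.62 ± 0.0965, adjusted p = 0.000389), and ARPC1B from 44.2, 43.6 and 43.2 to 60.3, 69.9 and 59.6 CPM (0.53 ± 0.0898, adjusted p = 0.000809). The others were MYL12A (0.50), ZYX (0.43), TPM4 (0.40), TAGLN2 (0.31), ARPC2 (0.31), CAPZB (0.29) and LIMA1 (0.22). ACTB was at 1071, 1475 and 1037 CPM with miR-155 against 880.4, 932 and 939 (0.38, adjusted p = 0.0794) and was not called, though it was under 4 alternatives (adjusted p from 0.00892 to 0.0469). The count of 12 was 6 without empty vector replicate 2 and 6 without miR-155 replicate 2, while 12 were called without the 3 libraries that stood apart, 10 of them in common. HEK293 markers summed to 1753 to 1886 CPM with miR-155 against 1523 to 1547 in the controls, and their part in the results was not tested.

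**Figure D5:**
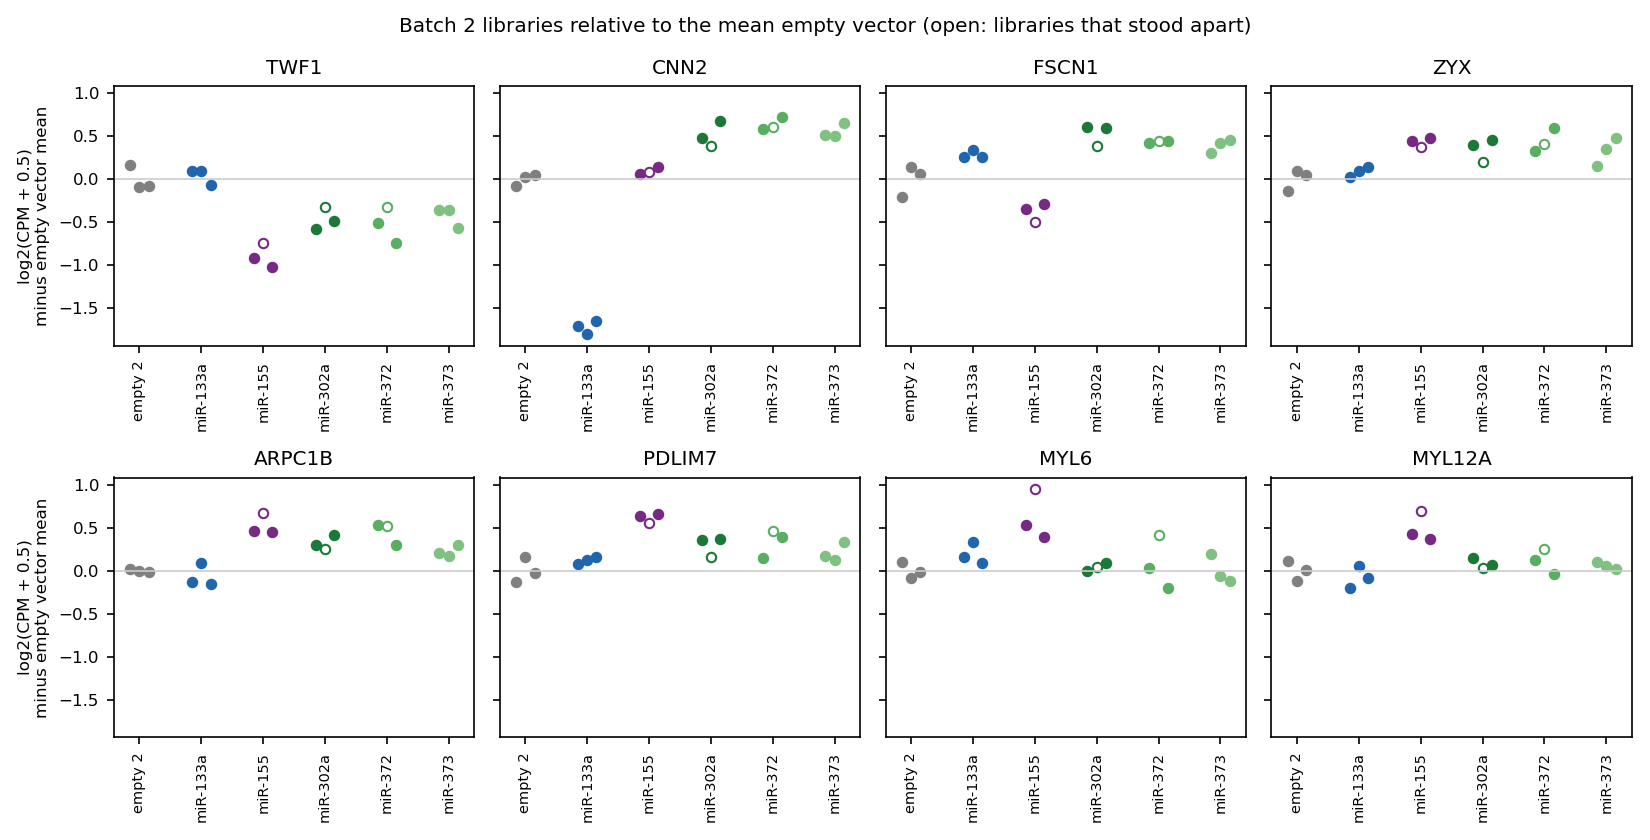
Log2 CPM of 8 members in each batch 2 library minus the mean of the empty vector libraries, with an offset of 0.5 CPM, by group, with open symbols for the 3 libraries that stood apart. MYL6 and MYL12A are highest in the open miR-155 library, whereas CNN2 with miR-133a and TWF1 with miR-155 lie well below 0 in every library.

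The 3 miRNAs with the seed AAGUGCU, which are made in embryonic stem cells, were compared with the same empty vector libraries, so their values are set side by side. With miR-302a 1 member was lower and 4 higher (7.88% of all genes called, 4.85% lower and 3.02% higher), with miR-372 2 were lower and 8 higher (11.4%, as 6.56% and 4.82%), and with miR-373 1 was lower and 3 higher (5.13%, as 3.3% and 1.83%). Member medians were 0.10, 0.13 and 0.09. TWF1, which carries the 7mer shown above, was the member lower with all 3: 41.7, 50.03 and 44.5 CPM with miR-302a (-0.46 ± 0.111, adjusted p = 0.0136), 43.9, 49.8 and 37.2 with miR-372 (-0.53 ± 0.11, adjusted p = 0.0042) and 48.7, 48.6 and 42.1 with miR-373 (-0.44 ± 0.11, adjusted p = 0.0248). All 9 libraries were below the 3 empty vector libraries. The 3′UTR of the TWF1 transcript with the longest coding sequence has no match to this seed. The call with miR-302a was lost without empty vector replicate 1 (-0.37, adjusted p = 0.0812) and without miR-302a replicate 1 or 3, and that with miR-373 without empty vector replicate 1 or 3 or miR-373 replicate 1 or 3. Without the libraries that stood apart TWF1 was at -0.54 with miR-302a (adjusted p = 0.000453) and -0.63 with miR-372 (adjusted p = 8.66e-05).

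CNN2, FSCN1 and ZYX were higher with all 3 miRNAs of this seed. CNN2 was at 78.3, 73.1 and 89.9 CPM with miR-302a (0.52 ± 0.0815, adjusted p = 0.000451), 84.0, 85.3 and 92.7 with miR-372 (0.64 ± 0.0812, adjusted p = 4.35e-05) and 79.7, 79.2 and 88.3 with miR-373 (0.56 ± 0.081, adjusted p = 0.000298), all above the controls at 52.9 to 58.0. FSCN1, which was lower with miR-155, was at 157 to 182 CPM with miR-302a (0.52, adjusted p = 0.000842), 161 to 164 with miR-372 (0.43, adjusted p = 0.00321) and 148 to 165 with miR-373 (0.39, adjusted p = 0.012), against 104 to 132.9 in the controls. The call of FSCN1 with miR-373 was lost under 2 alternatives. ZYX, zyxin, which repairs strained stress fibres, had 0.35 (adjusted p = 0.0257), 0.45 (adjusted p = 0.00415) and 0.34 (adjusted p = 0.0421), and its calls with miR-302a and miR-373 were lost under 4 and 5 alternatives. ARPC1B rose with miR-302a (0.32, adjusted p = 0.0313) and miR-372 (0.45, adjusted p = 0.00276), and TWF2 (0.38), PDLIM7 (0.34), TPM1 (0.30) and CNN3 (0.24) rose with miR-372. CAP2 was lower with miR-372, at 30.1, 30.9 and 29.9 CPM (-0.30, adjusted p = 0.0183). The 2 members with an 8mer for this seed, the membrane linker RDX and the tropomyosin TPM2, were not called with any of the 3.

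Without the libraries that stood apart all 5 calls with miR-302a and all 10 with miR-372 remained. With miR-302a and miR-372 the changes were then 0.59 and 0.66 for CNN2, 0.59 and 0.43 for FSCN1, 0.42 and 0.47 for ZYX and 0.36 and 0.42 for ARPC1B. Summed fibroblast markers were at 18.1 to 28.4 CPM with the 3 miRNAs against 15.7 to 18.1 in the controls, and HEK293 markers at 1572 to 1753 against 1523 to 1547. Their part in the results was not tested.

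The numbers of members called moved with single libraries. Shares of all genes called in the same fits are not given, so whether the members moved more than other genes was not tested. For miR-302a the count of 5 was 2 without empty vector replicate 1, miR-302a replicate 1 or miR-302a replicate 3, 9 without miR-302a replicate 2, and 16 without the 3 libraries that stood apart. For miR-372 the count of 10 was 5 without empty vector replicate 1, 6 without empty vector replicate 3 and 13 without the libraries that stood apart. For miR-373 the count of 4 was 1 without empty vector replicate 1, 2 without empty vector replicate 3, 1 without miR-373 replicate 3 and 7 without the libraries that stood apart.

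With miR-122, 3 members were called. Of 56 members, TPM1 and CAPZA2 were lower and TAGLN2 was higher, when 5.92% of all genes were called (4.06% lower and 1.86% higher), and the member median was 0.04. TAGLN2 was at 343 and 332 CPM against 281 and 301 in the controls. CAPZA2, a subunit of the capping protein, was at 118 in both miR-122 libraries against 129 and 133.3 CPM (-0.15 ± 0.0434, adjusted p = 0.0383), a call lost under 6 alternatives. The count of 3 was 5 without empty vector replicate 1, 7 without empty vector replicate 2 and 1 without miR-122 replicate 2. Without miR-122 replicate 1 edgeR called 0 members, with 8 at an unadjusted p under 0.05. No member had a miR-122 8mer, and 1 of 13 members with a 7mer, CAPZA2, was lower.

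Over all 7 miRNAs, 36 of the 56 members tested in both batches (64.3%) were called at least once and 20 never were, when 42.1% of all 13972 genes tested in both batches were called at least once. The 20 held ACTG1, both alpha-actinins, the actin-related proteins ACTR2 and ACTR3, PFN1 and PFN2, TMSB10, TAGLN, TPM2, MYH10, MYL12B, CFL2, CAPZA1, ezrin and radixin, and all 4 kinases and phosphatases of cofilin (LIMK1, LIMK2, SSH1 and SSH2). ACTG1, the most abundant member, had log2 changes from -0.06 to 0.13. These genes did not pass the test, which does not show that their levels were equal between groups, and 12 of the 20 were called under at least 1 alternative. Without the 3 libraries that stood apart 6 were: TMSB10 and PFN2 with miR-133a (adjusted p = 0.0111 and 0.00518), ACTN4 with miR-155 (adjusted p = 0.0395), CAPZA1, MYH10 and ACTR2 with miR-302a (adjusted p = 0.0269, 0.0138 and 0.0266), and CAPZA1 and PFN2 with miR-372 also. ACTG1, ACTN1, ACTR3, CFL2, EZR, SSH1, SSH2 and TPM2 were called under no alternative. TWF1, CNN2 and ZYX were each called with 5 miRNAs: TWF1 was lower with miR-1, miR-155 and the miR-302a family, CNN2 was lower with miR-133a and higher with miR-1 and the miR-302a family, and ZYX was higher with miR-1, miR-155 and the miR-302a family. TAGLN2, FSCN1 and TPM1 were called with 4 each, TAGLN2 lower with miR-1 and miR-133a and higher with miR-122 and miR-155.

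A further 62 genes of actin control that are not members, among them formins, WAVE and WASP proteins, other crosslinkers, adhesion genes and tropomodulins, were tested from a list chosen beside the members. With miR-1 11 of them were lower and 11 higher (17.7% each, against 13.7% and 10.8% of all genes), with miR-133a 4 were lower and 1 higher (6.45% and 1.61%, against 3.97% and 1.37%), and with the other 5 miRNAs 1 to 6 were lower and 1 to 4 higher. With miR-133a the lower ones were WASF2, a WAVE subunit that switches on the Arp2/3 complex (162, 192 and 178 against 94.8, 93.8 and 102 CPM, -0.87 ± 0.0899, adjusted p = 2.98e-06), the myosin light chain kinase MYLK (-0.73, adjusted p = 0.0203), the formin FHOD1 (-0.64, adjusted p = 3.54e-05) and the tropomodulin TMOD3, which caps the old end of filaments (-0.64, adjusted p = 3.24e-05). WASF2 was also lower with miR-1 (-0.16, adjusted p = 0.00757), and the changes with the 2 miRNAs differed (0.72 ± 0.124, adjusted p = 0.00101). MYLK was lower with miR-1 as well (12.3 and 11.3 against 5.88 and 6.37 CPM, -0.95 ± 0.114, adjusted p = 6.1e-06). Without miR-1 replicate 2 the count of 22 with miR-1 was 13, and the count of 5 with miR-133a was 3 without empty vector replicate 2 or without miR-133a replicate 3.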

How the data were processed

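RNA-seq read counts per gene were taken as deposited, in 1 table per batch. Per the study's methods, the authors trimmed reads, aligned them to hg19 with TopHat2 2.1.1 as strand-specific, and counted reads over exons by strand with featureCounts at a mapping quality that leaves out reads with several places, so the deposited counts are raw and understate genes with near-identical copies. The authors' tables of edgeR 3.24.3 comparisons hold fold changes and p-values and were not used. Symbols were mapped from Ensembl identifiers. Members and lists were chosen with earlier results of these data known.

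Each batch was fitted once with all its groups in edgeR 4.0.16 (R 4.3.3): filterByExpr with a minimum count of 10, TMM scaling, glmQLFit and glmQLFTest, with Benjamini-Hochberg adjustment over all genes tested and a threshold of 0.05. The fit of both batches had batch-specific empty vectors. Fold changes carry a prior count of 0.125, and the SE is the log2 fold change divided by the square root of F. The filter left 14348 genes in batch 1, 14054 in batch 2 and 14383 in the fit of both. The scripts were tested on simulated data. Replicates were grown separately, so p-values measure the spread between cultures. Depth is given with the samples, and precision is set by 2 or 3 cultures a group.

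Genes named singly were, for miR-1 and miR-133a, up to 14 called members with the largest changes and with groups that do not overlap, up to 4 for each other miRNA, members with an 8mer, the paralogs of these, ACTB and ACTG1. Other genes were named after their values were seen. Seed matches came from the GENCODE annotation lifted to GRCh37 and miRNA sequences from RefSeq. Alternatives were the edgeR fit with RLE in place of TMM scaling, the Wald test of DESeq2 1.42.0, other count filters and a replicate block. Further ones were only the groups compared, each library left out in turn, and, chosen after seeing the data, leaving out the 3 libraries that stood apart.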

Additional observations from a re-analysis of the deposited data

How the results depend on the processing

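Of 204 changes of single genes, 141 kept their call under every alternative. Any of these 141 that changed sign was not called and moved by at most 1 SE. Of the rest, 32 lost the call under at least 1 alternative and 20 gained one. The other 11 were not called, and changed sign and moved by more than 1 SE under at least 1. No called change turned direction. With the DESeq2 Wald test, the number of members called was 1 for miR-122, 19 for miR-155 and 11 for miR-302a. With only the groups compared it was 5 for miR-372 and 20 for the miR-1 change against the miR-133a change. Leaving out the 3 libraries that stood apart, an alternative chosen after seeing the data, gave 16 members for miR-302a and 7 for miR-373, and 11, 20 and 8 other actin genes for miR-133a, miR-302a and miR-373. For these other actin genes the Wald test gave 4 (miR-122), 13 (miR-155), 10 (miR-302a) and 5 (miR-373). No count filter gave 10, 10 and 5 for miR-155, miR-302a and miR-373. RLE scaling in edgeR gave 1 for miR-373, and only the groups compared gave 12, 5 and 7 for miR-133a, miR-372 and miR-373.

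The replicate number as a block gave 19 members for miR-155 and 9 for miR-302a, and 5 other actin genes for miR-122, 14 for miR-155, 11 for miR-302a and 7 for miR-373. The correlation of same-numbered libraries was -0.0391 and -0.0315 in batch 1 and from -0.186 to 0.220 in batch 2, and in no comparison did every library lie closest to its own number, so the libraries were taken to share only a number.

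With 8mers and 7mers that reach base 8 only, 9 of 15 members with a miR-1 match and 7 of 41 (17.1%) without were lower, as were 0 with a miR-122 match, and with the 3′UTR of the longest coding transcript 0 were lower with miR-155 and with each miRNA of the miR-302a family. Leaving out 1 library at a time, the members called ranged for miR-1 from 18 to 27, for miR-122 from 0 to 7, for miR-133a from 12 to 13, for miR-155 from 6 to 13, for miR-302a from 2 to 9, for miR-372 from 5 to 9, for miR-373 from 1 to 3, for miR-1 against miR-122 from 20 to 25, for miR-133a against the other miRNAs from 17 to 24 and for the difference of the muscle miRNAs from 9 to 12. Other actin genes ranged from 13 to 27 (miR-1), 3 to 13 (miR-122), 3 to 4 (miR-133a), 3 to 7 (miR-155), 1 to 10 (miR-302a), 3 to 10 (miR-372) and 1 to 2 (miR-373). In batch 1 this leaves 1 library in a group, which was assumed to vary like the others. Apart from what the alternative's own construction changes, the cause of these shifts was not tested. Shares of all genes called under each alternative are not given, so the shifts are no result about these genes. Depth limits CNN1, MYL9 and TAGLN3.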

Other observations

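Other genes of actin control outside the member list moved with the remaining miRNAs. With miR-155, ABI2, a subunit of the WAVE complex (-0.70 ± 0.0865, adjusted p = 2.92e-05), the kinase PAK2 (-0.64 ± 0.0805, adjusted p = 3.36e-05), the myosin light chain kinase MYLK (-0.73, adjusted p = 0.0172) and the formin FMNL2 (-0.37, adjusted p = 0.0255) were lower. The tropomodulin TMOD1 was higher by 0.66 (adjusted p = 0.00913).

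With miR-302a and with miR-372, the tropomodulin TMOD2 (-0.65, adjusted p = 0.0176, and -0.63, adjusted p = 0.0155), the formin FMNL3 (-0.59, adjusted p = 0.0143, and -0.59, adjusted p = 0.0104) and supervillin SVIL (-0.57, adjusted p = 0.012, and -0.62, adjusted p = 0.00535) were lower. DBN1, drebrin, which binds along filaments, was at 160.1, 180.1 and 180.4 CPM in the controls and at 220.4 to 251 in all 9 libraries of the 3 miRNAs of that seed (0.38, 0.44 and 0.37 with miR-302a, miR-372 and miR-373). With miR-122, TMOD1 was higher (0.67 ± 0.0879, adjusted p = 3.74e-05) and DBN1 was lower (-0.24, adjusted p = 0.00108). With miR-1, talin 2, TLN2, was lower (-0.57 ± 0.102, adjusted p = 0.00047).

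Counts of these genes moved when 1 library was left out. With miR-122 the count of 8 was 13 without empty vector replicate 2, 3 without miR-122 replicate 1 and 5 without miR-122 replicate 2. With miR-155 the count of 6 was 3 without empty vector replicate 2. With miR-302a the count of 6 was 3, 1, 2, 10 and 3 without empty vector replicate 1, empty vector replicate 2, miR-302a replicate 1, miR-302a replicate 2 and miR-302a replicate 3. With miR-372 the count of 10 was 4, 3, 5 and 5 without empty vector replicates 1, 2 and 3 and miR-372 replicate 1. With miR-373 the count of 2 was 1 without any 1 of the empty vector libraries, miR-373 replicate 1 or miR-373 replicate 3.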
